A study of Mus musculus with 13 samples.

Results

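The genes described here are 37 genes of glycolysis, glycogen metabolism and glucose transport in mouse quadriceps, a thigh muscle made mostly of fast fibres. They were taken from a fixed list by symbol, all 37 were found among the 24015 genes of the deposited expression table, and all 37 were among the 11876 genes tested. RNA of whole muscle lysates of C57BL/6 mice was sequenced in 13 libraries, which fell into 4 groups. Aged SW033291 muscle of batch 2 had 3 libraries (replicates 1, 4 and 6), from mice labelled as over 24 months old that received SW033291 at 5 mg/kg, a compound that blocks 15-PGDH, the enzyme that degrades prostaglandin E2. Aged vehicle muscle of batch 2 had 3 libraries (replicates 2, 3 and 8) and aged vehicle muscle of batch 1 had 3 libraries (replicates 2, 3 and 4), from mice of the same age class. Young vehicle muscle of batch 1 had 4 libraries (replicates 1, 3, 4 and 5), from mice of 3 months. All animals received daily intraperitoneal injections for 4 weeks, and the vehicle held ethanol, Cremophor EL and dextrose. Young muscle existed in batch 1 only and treated muscle in batch 2 only.

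Skeletal muscle takes up glucose through transporters in the fibre membrane and traps it as glucose 6-phosphate by means of hexokinase. Glucose 6-phosphate is either broken down by glycolysis to pyruvate and lactate, which yields ATP quickly during contraction, or stored as glycogen. Fast fibres hold large amounts of the glycolytic enzymes and of glycogen phosphorylase, the enzyme that releases glucose units from the store. Several steps have a muscle isoform and isoforms shared with other tissues, and the list holds both kinds.

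Levels are given as TPM, an abundance per transcript length that is scaled to the same total in every library. This unit does not show how many reads were counted, and depth is therefore unknown. Nothing in the labels ties libraries to separate animals, and p-values here reflect only the variation among the samples, which may be technical. In whole tissue, fewer cells of a type and less RNA per cell cannot be told apart. Gene names in the deposited table did not stand on their own rows and were put back by their order, so each value rests on that order. Markers of fast fibres summed to between 203750 and 233900 TPM in the 13 libraries, and markers of slow fibres to between 40.3 and 795 TPM. Aged vehicle batch 1 replicate 4 stood apart, with neutrophil markers summing to 1766 TPM, against at most 2.92 TPM in young libraries, and red cell markers to 2105 TPM, against at most 552 TPM in young libraries. The lowest correlation between libraries of its group was 0.946, and the pair that gave it was not recorded. Neutrophil markers also summed to 234 TPM in SW033291 replicate 4 and to 780 TPM in aged vehicle batch 2 replicate 2, where red cell markers summed to 1173 TPM. Adipocyte markers summed to 3759 TPM in SW033291 replicate 1, to 3151 and 2144 TPM in young replicates 1 and 3, and to between 657 and 1349 TPM in the other 10 libraries. All 8 adipocyte markers were above 0 in every library, while 9 of the 10 neutrophil markers were listed at 0 in at least 3 libraries.

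The 37 genes together made up 6.41%, 6.76% and 6.68% of all TPM in SW033291 replicates 1, 4 and 6, and 6.19%, 6.09% and 6.78% in aged vehicle batch 2 replicates 2, 3 and 8. They made up 7.18%, 6.81% and 5.11% in aged vehicle batch 1 replicates 2, 3 and 4, and 7.79%, 7.45%, 7.22% and 7.40% in young replicates 1, 3, 4 and 5. All 9 aged libraries thus lay below all 4 young ones, by a small step for aged batch 1 replicate 2 and by the widest for replicate 4. Aldoa, which encodes the muscle form of aldolase, supplied 29.0% to 37.9% of the summed TPM of these genes in a library. By the mean of each group, the next most abundant were Gapdh, Eno3 and Pygm, with Eno3 above Gapdh in both groups of batch 2.

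**Figure D1:**
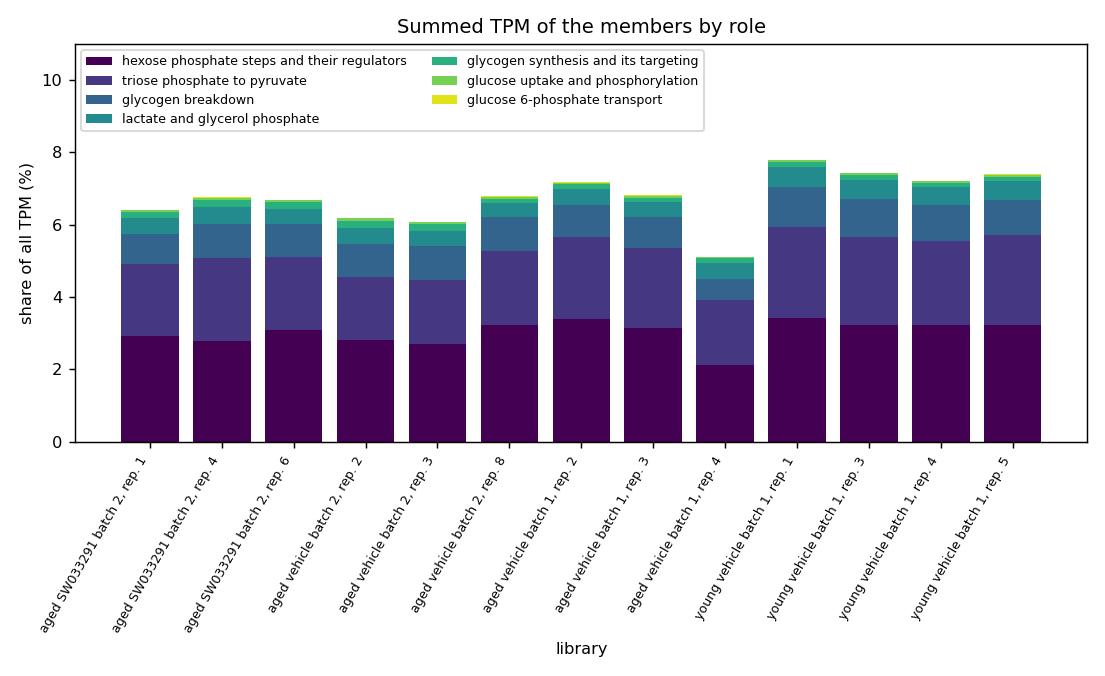
Summed level of the 37 genes in each of the 13 libraries, as a share of all TPM (%, vertical axis), stacked by role. The 9 aged libraries sit between 5.11% and 7.18% and the 4 young libraries between 7.22% and 7.79%.

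For 8 steps the muscle form could be set against other forms in each library, on the TPM scale. Phosphofructokinase, the enzyme that commits sugar to glycolysis, was represented by Pfkm, whose level was between 292 and 486 times the summed level of Pfkl and Pfkp in all 13 libraries. Pygm, the muscle glycogen phosphorylase, stood at 749 to 4085 times Pygb, the brain form. Pygb lay at 1.54 to 8.35 TPM, so small absolute differences move this ratio. Eno3, the muscle enolase, stood at 81.8 to 196 times Eno1, and Pgam2, the muscle phosphoglycerate mutase, at 128 to 274 times Pgam1. Eno1 may share reads with its copy Eno1b, listed at 5.92 to 54.8 TPM, so its ratio is uncertain. These ratios describe a tissue in which the muscle forms are by far the main transcripts at each of those steps. Other pairs were less unequal. Ldha, which encodes the lactate dehydrogenase subunit typical of fast muscle, stood at 11.9 to 41.7 times Ldhb, the subunit typical of heart. The lactate exporter gene Slc16a3 (MCT4) stood at 13.7 to 31.3 times Slc16a1 (MCT1). Some of these ratios also separated some of the groups, but not all. Pgam2 to Pgam1 was 135 to 151 in aged vehicle muscle of batch 2, against 169 to 249 in aged vehicle and 189 to 274 in young muscle of batch 1. In SW033291 muscle it was 128 to 191, which overlapped each of these groups. Slc16a3 to Slc16a1 was 13.9 to 22.9 in SW033291 and 13.9 to 21.9 in aged vehicle muscle of batch 2, against 23.3 to 27.7 in young muscle. In aged vehicle muscle of batch 1 it was 13.7 to 31.3, a span that took in the whole young range.

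The remaining 2 pairs are given by group. The ratio of Slc2a4, the insulin-responsive transporter GLUT4, to Slc2a1, the widespread transporter GLUT1, was 35.1 to 53.3 in aged vehicle muscle of batch 1 and 79.0 to 132 in young muscle. The ratio was 47.0 to 149 in SW033291 muscle and 85.3 to 102 in aged vehicle muscle of batch 2. The ratio of Hk2, the main hexokinase of muscle, to Hk1, the hexokinase of most tissues, was 61.7 to 68.8 in SW033291 muscle and 43.0 to 62.7 in aged vehicle muscle of batch 2. The same ratio was 21.8 to 37.1 in aged vehicle and 23.1 to 29.5 in young muscle of batch 1. The denominators Slc2a1 and Hk1 lay at 2.05 to 11.7 TPM, so small absolute differences move these ratios, and they are given without a test.

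Aged and young vehicle muscle were compared within batch 1, which addresses how the transcripts of sugar metabolism differ with age. The clearest difference was a rise of Amy1, an alpha-amylase that cleaves starch and glycogen and is best known as the salivary enzyme, to about 3 times its young level. Slc37a4, the carrier that moves glucose 6-phosphate into the endoplasmic reticulum, fell. Of the 37 genes, 10 had a positive and 27 a negative log2 difference, and the median was -0.15 on the log2(TPM + 1) scale, against 0.06 over all genes tested. In single libraries the median of the 37 genes against the young mean was -0.11, -0.06 and -0.39 in aged replicates 2, 3 and 4, and 0.13, 0.06, -0.10 and -0.04 in young replicates 1, 3, 4 and 5. Aged replicate 4 was by far the lowest, and the other aged libraries lay near the lowest young one. Amy1 and Slc37a4 were the 2 genes of the 37 with a limma adjusted p under 0.05 (Benjamini-Hochberg), 5.41%, where 0.455% of all genes tested passed.

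Amy1 stood at 137, 145 and 172 TPM in aged vehicle batch 1 replicates 2, 3 and 4, against 50.7, 57.3, 47.1 and 35.9 TPM in young replicates 1, 3, 4 and 5. In batch 2 its levels were 156, 156 and 206 TPM with SW033291 and 155, 171 and 127 TPM with vehicle. All 9 aged libraries were above all 4 young ones, and the lowest aged library was more than 2 times the highest young one. Aged vehicle muscle of batch 1 averaged 151 TPM and young muscle 47.7 TPM, a log2 difference of 1.66 (SE 0.16, 95% interval 1.31 to 2.01, 3.15-fold). The limma adjusted p was 5.4e-04, and by unadjusted p Amy1 ranked 1 of the 11876 genes. The call held in all 18 other settings tried, with log2 differences of 1.53 to 1.85 and limma adjusted p of 3.6e-05 to 0.0088. Amylase genes have near-identical copies that can share reads. The pancreatic copies in the file, Amy2a2, Amy2a3, Amy2a4, Amy2a5 and Amy2b, reached at most 0.44 TPM in any library.

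Slc37a4 stood at 108, 96.1 and 85.5 TPM in aged vehicle batch 1 replicates 2, 3 and 4, against 141, 147, 141 and 135 TPM in young replicates 1, 3, 4 and 5. The groups did not overlap, and the log2 difference was -0.55 (SE 0.10, limma adjusted p = 0.033). The call was fragile. It ended in the fits without young replicate 1, 3, 4 or 5 (limma adjusted p = 0.104, 0.0868, 0.103 and 0.0976) and without aged replicate 3 (limma adjusted p = 0.0814), with log2 differences of -0.57 to -0.53. Levels in batch 2 were 119, 121 and 101 TPM with SW033291 and 114, 110 and 123 TPM with vehicle, also below every young library.

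The promoter windows of Amy1 and Slc37a4 are shown because these are the genes that passed with age. Each window runs from 250 bases before to 50 bases after a transcript start of RefSeq (mouse build GRCm38.p6, whereas the submitters' processing notes name mm9), shown for both listed starts of Amy1 and for 2 of the 3 of Slc37a4. Capitals mark matches to the E-box CANNTG, the core bound by basic helix-loop-helix factors such as MyoD.
Amy1 chr3:113577701-113578000 (- strand): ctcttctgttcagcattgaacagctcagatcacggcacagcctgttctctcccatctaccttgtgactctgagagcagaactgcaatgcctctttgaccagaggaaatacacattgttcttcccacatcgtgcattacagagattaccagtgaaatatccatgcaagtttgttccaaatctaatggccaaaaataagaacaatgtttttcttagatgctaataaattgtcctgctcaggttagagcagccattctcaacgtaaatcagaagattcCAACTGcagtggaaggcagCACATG
Amy1 chr3:113574713-113575012 (- strand): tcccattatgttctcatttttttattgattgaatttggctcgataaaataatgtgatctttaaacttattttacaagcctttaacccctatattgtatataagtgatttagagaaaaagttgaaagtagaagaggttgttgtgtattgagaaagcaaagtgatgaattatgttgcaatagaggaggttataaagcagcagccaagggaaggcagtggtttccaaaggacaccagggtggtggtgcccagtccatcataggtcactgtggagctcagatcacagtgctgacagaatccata
Slc37a4 chr9:44396696-44396995 (+ strand): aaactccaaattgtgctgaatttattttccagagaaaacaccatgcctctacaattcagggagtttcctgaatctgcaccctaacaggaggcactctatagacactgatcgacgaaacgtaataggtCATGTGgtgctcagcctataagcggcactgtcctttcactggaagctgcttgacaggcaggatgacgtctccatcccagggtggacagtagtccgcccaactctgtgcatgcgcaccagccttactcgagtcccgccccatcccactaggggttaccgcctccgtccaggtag
Slc37a4 chr9:44398104-44398403 (+ strand): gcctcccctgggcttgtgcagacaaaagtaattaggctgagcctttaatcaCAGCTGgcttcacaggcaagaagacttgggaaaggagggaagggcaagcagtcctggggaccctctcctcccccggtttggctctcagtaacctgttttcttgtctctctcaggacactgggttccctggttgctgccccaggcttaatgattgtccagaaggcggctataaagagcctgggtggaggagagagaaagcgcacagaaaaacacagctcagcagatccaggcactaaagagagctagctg
The first Amy1 window held 2 such matches and the other none, and each Slc37a4 window shown held 1, of which the one at the downstream start reads CAGCTG, the form MyoD favours. The motif reads CANNTG on both strands, and CAGCTG is a special case of it. CANNTG occurs in 72.3% of all 32851 promoter windows of this length and in 75.0% of the 52 windows of the members. CAGCTG occurs in 16.3% of all windows and in 26.9% of those of the members. CACGTG, the form bound by clock factors, occurs in 7.15% of all windows and 11.5% of those of the members. Of the 37 members 35 had a window, and Gpd1 and Slc2a4 had none in the table. A match in a window is a description and not a binding site.

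**Figure D2:**
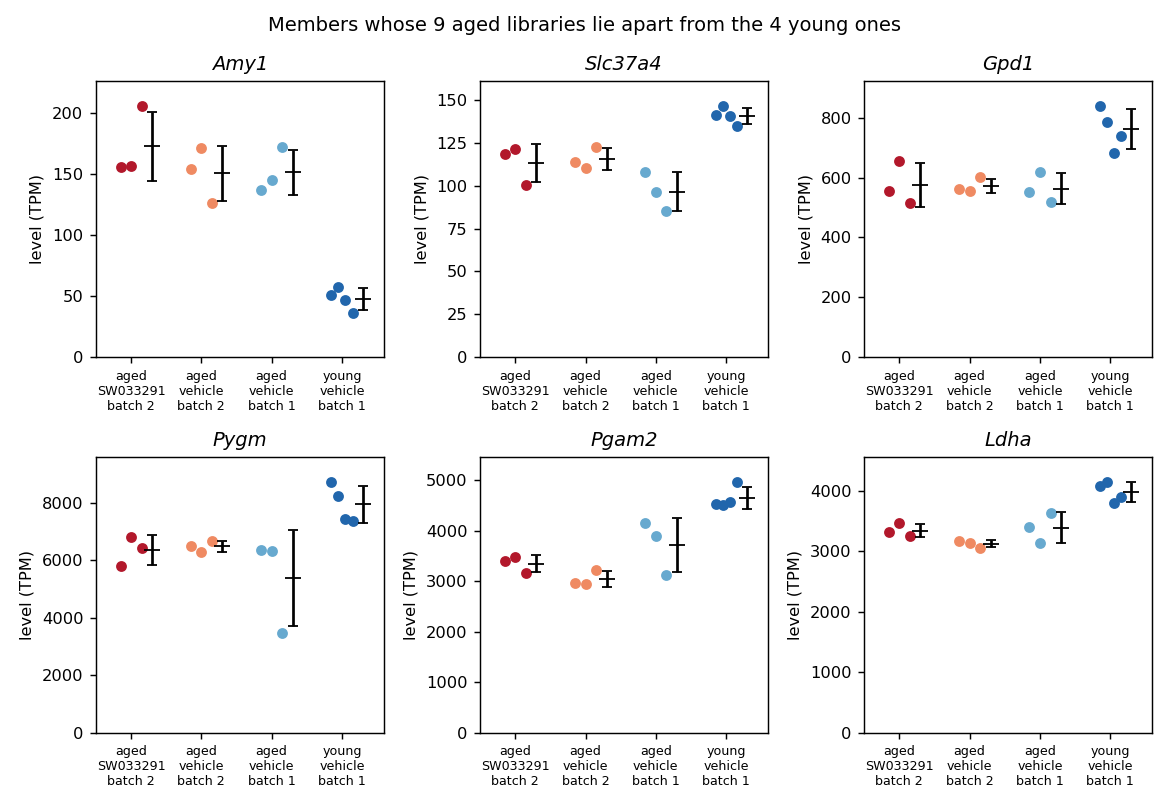
Level in TPM (vertical axes, from 0) of 6 genes in each library, by group. Points are libraries, and black marks are the mean ± SD of a group (n = 3, 3, 3 and 4). All 9 aged libraries, of which 3 had SW033291, are above the 4 young ones for Amy1 and below them for Slc37a4, Gpd1, Pygm, Pgam2 and Ldha.

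At an unadjusted p under 0.05, 12 of the 37 genes (32.4%) differed with age, against 9.92% of all genes tested. Of these Amy1, Slc2a1 and Gbe1 had positive and the other 9 negative differences. Aged and young libraries did not overlap for 8 genes that were lower in aged muscle, 21.6% of the 37, where 2.7% of all genes tested did so. Amy1 was the only gene of the 37 that was higher without overlap, where 8.85% of all genes tested were. The list had been chosen with earlier results of these libraries known, so the counts describe these genes and are not independent evidence of a direction. Markers of other cells moved alongside. All 7 markers of fibro-adipogenic progenitors, cells that lie between fibres and lay down matrix, had negative differences, with sums of 146 to 384 TPM in aged and 381 to 445 TPM in young muscle. All 8 adipocyte markers were negative (768 to 1349 TPM in aged and 657 to 3151 TPM in young muscle). All 9 tested neutrophil markers were positive. They summed to 0.87, 5.49 and 1766 TPM in aged replicates 2, 3 and 4 and to 0.88 to 2.92 TPM in young muscle, so these signs rest largely on replicate 4. The neutrophil markers Camp and Elane were at 0 in 10 libraries each, so they were tested only through the libraries where they were high. All 7 endothelial markers (80.1 to 167 TPM in aged and 112 to 159 TPM in young muscle), 6 of 7 macrophage markers (37.9 to 60.4 TPM in aged and 31.1 to 106 TPM in young muscle) and 9 of 12 fast fibre markers (203750 to 215990 TPM in aged and 215210 to 233900 TPM in young muscle) were negative too. The part of these cells in the differences was not tested.

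Of the 4 genes of glucose uptake and phosphorylation, 0 passed. Slc2a4 stood at 381, 410 and 244 TPM in the aged libraries (replicates 2, 3 and 4), against 433, 432, 387 and 403 TPM in young replicates 1, 3, 4 and 5. Aged replicate 3 lay within the young range and replicate 4 far below it, and the log2 difference was -0.29 (SE 0.14, limma adjusted p = 0.52). Hk2 stood at 89.8, 106 and 65.6 TPM in aged muscle and at 94.3 to 118 TPM in young muscle. Slc2a1 had 7.15, 11.7 and 4.99 TPM in the aged libraries (replicates 2, 3 and 4) and 3.06 to 5.47 TPM in young muscle. The log2 differences of Slc2a1, Hk2 and Hk1 were 0.79, -0.34 and -0.30 (limma adjusted p = 0.38, 0.58 and 0.71), and that of Slc2a1 was 0.50 without aged replicate 3.

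The 9 genes grouped under hexose phosphate steps, with Tpi1 counted among them, included 0 that passed and 0 with an unadjusted p under 0.05. Aldoa had 26335, 23583 and 14823 TPM in the aged libraries (replicates 2, 3 and 4) and 24024 to 25672 TPM in young muscle. Aged replicate 4 alone was far below the rest. Pfkm had 2968, 3066 and 1862 TPM in the same aged libraries and 2671 to 3292 TPM in young muscle. Gpi1, glucose 6-phosphate isomerase, had 856, 861 and 491 TPM in them and 728 to 960 TPM in young muscle, so replicate 4 was again the low library. Tpi1, triose phosphate isomerase, had 3611, 3724 and 3561 TPM in aged and 3005 to 3970 TPM in young muscle, a log2 difference of 0.04 (SE 0.10). The minor forms Pfkl and Pfkp stayed at 7.01 TPM or less in these 7 libraries, with log2 differences of -0.15 and -0.09. Fbp2, the muscle fructose bisphosphatase that runs the step in reverse, differed by 0.005 on the log2 scale (SE 0.23). Pfkfb1 and Pfkfb3 make and remove fructose 2,6-bisphosphate, the activator of phosphofructokinase, and differed by -0.10 and 0.15. Pfkfb3 stood at 85.7, 130 and 363 TPM in the aged libraries (replicates 2, 3 and 4) and at 100 to 208 TPM in young muscle. The high value was in the library with neutrophil markers at 1766 TPM. In aged vehicle batch 2 replicates 2, 3 and 8, Pfkfb3 had 69.9, 94.1 and 189 TPM and neutrophil markers summed to 780, 7.81 and 22.4 TPM. The part of those cells in the Pfkfb3 values was not tested.

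The 6 genes grouped as triose phosphate to pyruvate were Gapdh, Pgk1, Pgam1, Pgam2, Eno1 and Eno3. All 6 had negative log2 differences with age, with a median of -0.25, and 0 passed. Tpi1, counted above with the hexose phosphate genes, had a positive difference of 0.04. Pgam2 stood at 4150, 3894 and 3118 TPM in the aged libraries (replicates 2, 3 and 4), against 4540, 4522, 4563 and 4972 TPM in young replicates 1, 3, 4 and 5. The groups did not overlap, and the log2 difference was -0.33 (SE 0.10, limma adjusted p = 0.18, and -0.21 without aged replicate 4). Pgk1, phosphoglycerate kinase, stood at 1135, 1132 and 1189 TPM in aged and at 1416, 1288, 1352 and 1465 TPM in young muscle. These did not overlap either, and the difference was -0.26 (SE 0.10, limma adjusted p = 0.36). Eno3 stood at 7173, 7393 and 6507 TPM in aged and at 8470, 8449, 7695 and 8405 TPM in young muscle, again with no overlap (-0.23, SE 0.09, limma adjusted p = 0.39). Gapdh, the dehydrogenase often used as a reference transcript, had 10030, 9617 and 7124 TPM in the aged libraries (replicates 2, 3 and 4) and 9570 to 10573 TPM in young muscle. Its log2 difference was -0.19 (SE 0.12), and those of the minor forms Eno1 and Pgam1 were -0.36 (SE 0.24) and -0.10 (SE 0.17). Gapdh, Aldoa, Tpi1, Pgk1, Pgam1, Ldha and Eno1 have processed pseudogenes or near-identical copies, so their values are uncertain where reads are shared. The copy Eno1b was listed at 5.92 to 54.8 TPM.

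Of the 5 genes of lactate and glycerol phosphate metabolism, 4 had negative differences and 0 passed. Ldha stood at 3411, 3139 and 3638 TPM in the aged libraries (replicates 2, 3 and 4), against 4085, 4153, 3804 and 3896 TPM in young replicates 1, 3, 4 and 5. The groups did not overlap, and the log2 difference was -0.23 (SE 0.08, limma adjusted p = 0.24). Ldhb varied more within groups (141, 204 and 133 TPM in aged and 189, 190, 91.2 and 134 TPM in young muscle), with a difference of 0.11 (SE 0.33). Slc16a3 stood at 326, 268 and 176 TPM in aged and at 305 to 390 TPM in young muscle (-0.45, SE 0.17, limma adjusted p = 0.33, and -0.20 without aged replicate 4), and Slc16a1 differed by -0.10 (SE 0.18).

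Gpd1, the cytosolic glycerol 3-phosphate dehydrogenase that links glycolysis to NADH shuttling and to glycerolipids, was the next nearest to the threshold. It stood at 552, 620 and 518 TPM in the aged libraries (replicates 2, 3 and 4), against 839, 785, 683 and 741 TPM in young replicates 1, 3, 4 and 5. The groups did not overlap, and the log2 difference was -0.44 (SE 0.10, limma adjusted p = 0.081). It passed under quantile normalization (limma adjusted p = 0.028) and after rescaling without the 20 most abundant genes (limma adjusted p = 0.045). Fat cells also express Gpd1, and the highest young values were in replicates 1 and 3, where adipocyte markers summed to 3151 and 2144 TPM, against 657 and 855 TPM in young replicates 4 and 5. The median log2 difference from the young mean over the listed genes was also highest there. It was 0.13 and 0.06 in young replicates 1 and 3, and -0.10 and -0.04 in young replicates 4 and 5. Without young replicates 1 and 3 the difference of Gpd1 was -0.34 (limma adjusted p = 0.54). That fit was chosen after seeing the data, and 8 genes in all were called with age in it, against 54 in the fit reported. In SW033291 replicate 1, where adipocyte markers summed to 3759 TPM, Gpd1 stood at 556 TPM, below all young libraries. The part of fat cells in the difference was not tested.

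Glycogen breakdown held the called rise of Amy1 and 5 negative differences among its 7 genes. Pygm stood at 6366, 6325 and 3459 TPM in the aged libraries (replicates 2, 3 and 4), against 8719, 8217, 7433 and 7355 TPM in young replicates 1, 3, 4 and 5. All aged libraries were lower, replicate 4 by far the most. The log2 difference was -0.61 (SE 0.17, limma adjusted p = 0.15), and without aged replicate 4 it was -0.32 (limma adjusted p = 0.12). Pgm2, a phosphoglucomutase that turns glucose 1-phosphate into glucose 6-phosphate, had 1377, 1179 and 1232 TPM in aged and 1535, 1340, 1572 and 1465 TPM in young muscle (-0.23, SE 0.09, limma adjusted p = 0.36). RefSeq lists this symbol for a gene on mouse chromosome 5 and as a synonym of Pgm1 on chromosome 4, so which of the 2 genes the row holds is not settled. Phosphorylase kinase, which switches phosphorylase on, is represented by Phka1, Phkb and Phkg1, whose log2 differences with age were -0.06, 0.03 and -0.12. Phkg1, the catalytic subunit of muscle, had 438 to 466 TPM in aged and 468 to 518 TPM in young muscle, with groups that just failed to overlap (limma adjusted p = 0.72). Pygb had 1.78, 4.77 and 2.55 TPM in aged and 8.08, 8.35, 3.47 and 2.56 TPM in young muscle. Over all 13 libraries Pygb was highest in the 3 with the highest adipocyte markers, and the part of fat cells in its values was not tested.

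Among the 5 genes of glycogen synthesis, 3 had positive differences and 0 passed. Gbe1, the branching enzyme, stood at 24.4, 37.3 and 34.2 TPM in the aged libraries (replicates 2, 3 and 4), against 25.9, 25.6, 17.6 and 20.2 TPM in young replicates 1, 3, 4 and 5. Aged replicate 2 lay within the young range, and the log2 difference was 0.50 (SE 0.16, limma adjusted p = 0.23). Ugp2, which makes UDP-glucose, stood at 457, 388 and 529 TPM in aged and at 374 to 453 TPM in young muscle. Gys1, the muscle glycogen synthase, stood at 267, 316 and 135 TPM in aged and at 216 to 281 TPM in young muscle. Their differences were 0.14 (SE 0.12) and -0.12 (SE 0.21). Ppp1r3a and Ppp1r3c bring protein phosphatase 1 to glycogen and differed by 0.14 (SE 0.37) and -0.03 (SE 0.34). Ppp1r3a was at 161 TPM in aged replicate 4 and at 35.9 to 73.3 TPM in the other 6 libraries of batch 1.

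**Figure D3:**
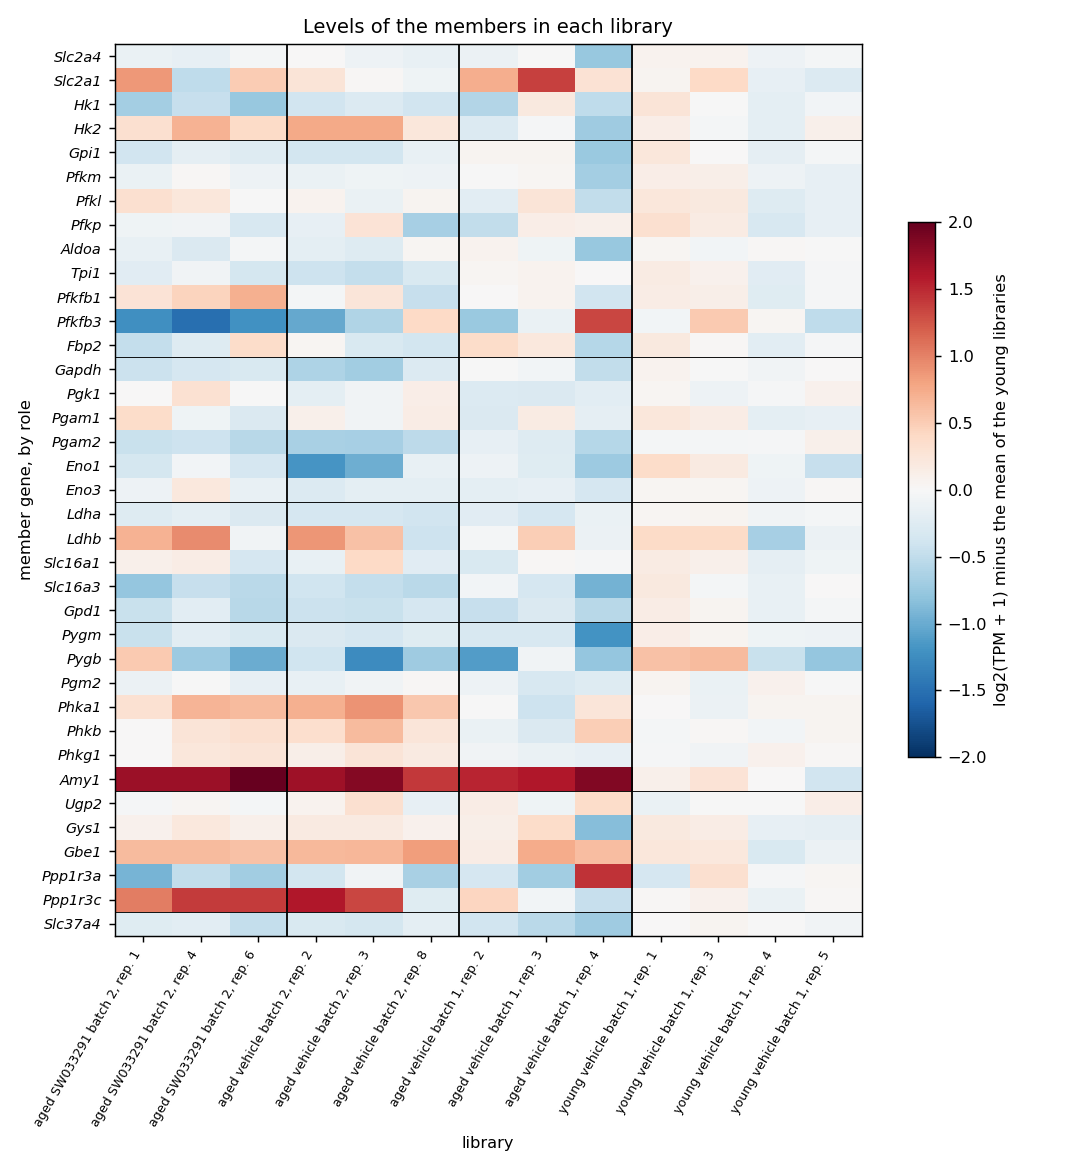
Log2(TPM + 1) of each of the 37 genes (rows, by role) in each library (columns, by group), minus the mean of the 4 young libraries. Red is higher and blue lower, and colours saturate at a difference of 2. Amy1 is red in all 9 aged libraries, and aged vehicle batch 1 replicate 4 has the lowest median over the 37 genes, -0.39.

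The libraries of batch 2 give another view of aged muscle, set against the same young libraries. Nothing in the labels ties them to other animals than those of the 3 aged libraries above. The list was chosen with earlier results of these libraries known, so the counts here are a description too. Taking all 9 aged libraries against all 4 young ones, 5 of the 37 genes (Pgam2, Ldha, Gpd1, Pygm and Slc37a4) were lower in every aged library, 13.5% of the list against 0.783% of all genes tested. Amy1 was higher in every aged library, 2.70% of the list against 3.29% of all genes tested. For Pgam2 the aged libraries spanned 2947 to 4150 TPM and the young ones 4522 to 4972 TPM. For Ldha the aged libraries spanned 3063 to 3638 TPM and the young ones 3804 to 4153 TPM. For Gpd1 the spans were 515 to 655 TPM in aged and 683 to 839 TPM in young muscle, and for Pygm 3459 to 6805 TPM in aged and 7355 to 8719 TPM in young muscle. Of the 9 aged libraries 3 had SW033291, and no young library did. For the libraries of batch 2, batch, and in those 3 also treatment, cannot be told apart from age here.

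When the aged vehicle libraries of batch 2 were set against young muscle in place of those of batch 1, 10 of the 37 genes passed, while 14.1% of all genes tested passed. Lower were Tpi1 (-0.40), Gapdh (-0.53), Pgam2 (-0.61), Eno1 (-0.77), Ldha (-0.35) and Gpd1 (-0.41), and higher were Hk2 (0.58), Phka1 (0.71), Amy1 (1.65) and Gbe1 (0.72), with limma adjusted p of 1.9e-04 to 0.0497. The highest of these belonged to Eno1, whose value is uncertain because reads may be shared with the copy Eno1b. With both batches of aged vehicle libraries pooled, 4 passed (Amy1 and Gbe1 higher, Pgam2 and Gpd1 lower), while 2.5% of all genes tested passed. Amy1, at 1.65, had nearly the same difference in either batch, and Slc37a4 was at -0.28 (limma adjusted p = 0.080) with batch 2 and -0.41 (limma adjusted p = 0.051) pooled.

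**Figure D4:**
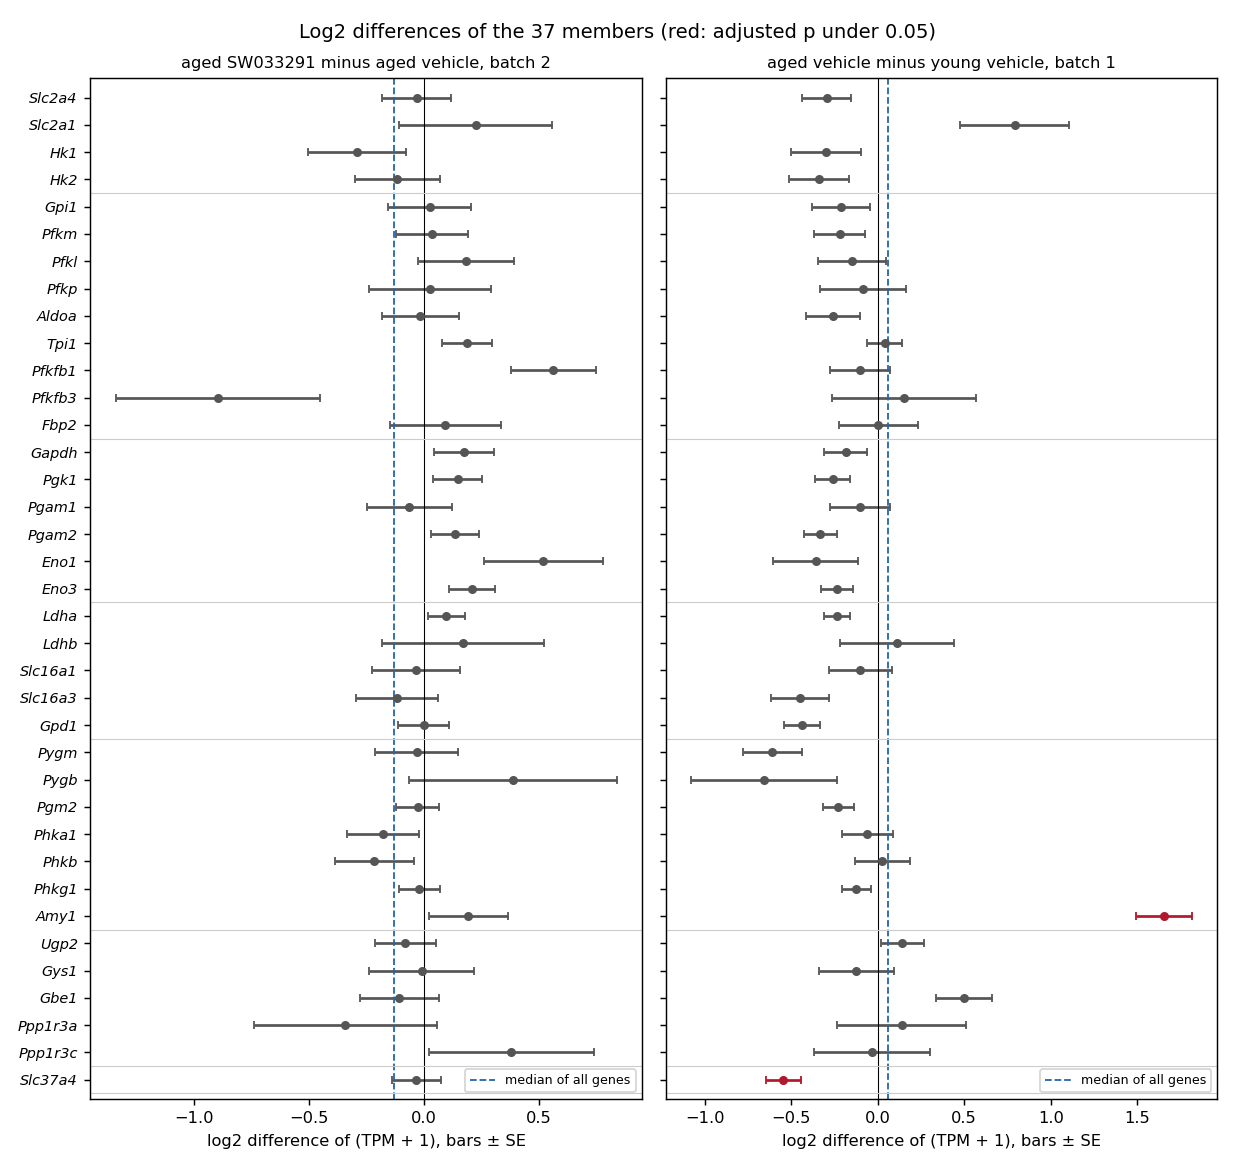
Fitted log2 differences of the 37 genes on the log2(TPM + 1) scale, SW033291 minus vehicle in aged muscle of batch 2 (left) and aged minus young vehicle muscle of batch 1 (right). Points are estimates, bars are ± SE, red marks a limma adjusted p under 0.05, and the dashed line is the median of all genes (-0.13 left, 0.06 right). Amy1 and Slc37a4 are the red points, both on the right.

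The comparison of SW033291 with vehicle in aged muscle of batch 2 addresses which of these transcripts differ after inhibition of 15-PGDH. No glycolytic, glycogen or transport gene of the list changed past the threshold. By limma with Benjamini-Hochberg adjustment 0 of the 37 genes passed, and 0% of all genes tested did. An unadjusted p under 0.05 was reached by 1 of 37, 2.70%, against 10.3% of all genes tested. Groups did not overlap for 3 genes that were higher with SW033291 (Pfkfb1, Eno3 and Ldha), 8.11% against 1.95% of all genes tested. They did not overlap for 3 that were lower (Hk1, Pfkfb3 and Gbe1), 8.11% against 15.1% of all genes tested.

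Pfkfb1 was the gene with the unadjusted p under 0.05. It stood at 59.1, 66.5 and 80.1 TPM in SW033291 replicates 1, 4 and 6, against 47.2, 57.5 and 35.2 TPM in aged vehicle replicates 2, 3 and 8. The groups were next to each other without overlap, and the log2 difference was 0.56 (SE 0.19, 95% interval 0.16 to 0.96, unadjusted p = 0.0091, limma adjusted p = 0.41). Pfkfb3, the other isoform on the list, stood at 60.7, 50.1 and 61.6 TPM with SW033291, against 69.9, 94.1 and 189 TPM with vehicle, a difference of -0.90 (SE 0.44, limma adjusted p = 0.51). Vehicle replicate 8 was far above the other vehicle libraries.

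The 6 genes from triose phosphate to pyruvate had a median of 0.16, with Pgam1 (-0.06) as the negative one. Eno3 stood at 7678, 9532 and 7471 TPM with SW033291, against 6823, 7240 and 7166 TPM with vehicle (0.21, SE 0.10, limma adjusted p = 0.49). Ldha stood at 3318, 3465 and 3253 TPM with SW033291, against 3171, 3143 and 3063 TPM with vehicle (0.10, SE 0.08, limma adjusted p = 0.66). Both sets were higher without overlap, by steps that did not pass. Gapdh had 7483, 7974 and 8104 TPM with SW033291 and 6525, 6199 and 8315 TPM with vehicle, and Pgk1 1391, 1704 and 1376 TPM with SW033291 and 1204, 1316 and 1518 TPM with vehicle. Their log2 differences were 0.17 (SE 0.13) and 0.15 (SE 0.11), and those of Pgam2 and Eno1 were 0.13 (SE 0.10) and 0.52 (SE 0.26). Tpi1, counted with the hexose phosphate genes, differed by 0.19 (SE 0.11).

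The genes that stood out with age had small differences with SW033291. Amy1 differed by 0.19 (95% interval -0.18 to 0.57), Slc37a4 by -0.03 (-0.27 to 0.20), Gpd1 by -0.0003 (-0.24 to 0.24) and Pygm by -0.03 (-0.42 to 0.36). All 4 intervals include 0. Slc2a4 had 376, 369 and 403 TPM with SW033291 and 416, 384 and 373 TPM with vehicle, and Hk2 136, 175 and 141 TPM with SW033291 and 184, 183 and 127 TPM with vehicle, so both groups overlapped. Aldoa had 22596, 20560 and 24307 TPM with SW033291 and 21798, 20854 and 25671 TPM with vehicle. Gbe1 stood at 33.4 to 34.6 TPM with SW033291 and 35.1 to 40.2 TPM with vehicle, and Hk1 at 2.05 to 2.71 TPM with SW033291 and 2.94 to 3.27 TPM with vehicle, each apart by a narrow gap. The remaining members had limma adjusted p of 0.648 or more. All 8 adipocyte markers had positive differences with SW033291. Their sums were 3759, 1019 and 955 TPM in SW033291 replicates 1, 4 and 6 and 837 to 869 TPM with vehicle, so replicate 1 stood far above the rest. Adipoq had 151, 14.8 and 12.9 TPM in replicates 1, 4 and 6, against 10.2 to 24.0 TPM with vehicle. Fabp4 was above vehicle in each treated library (1732, 552 and 501 TPM, against 406 to 471 TPM). Of 9 slow fibre markers, 8 had negative differences (56.1 to 795 TPM with SW033291 and 152 to 696 TPM with vehicle). All 9 tested neutrophil markers (6.33 to 234 TPM with SW033291 and 7.81 to 780 TPM with vehicle) and all 7 macrophage markers (35.8 to 56.6 TPM with SW033291 and 33.6 to 63.0 TPM with vehicle) had negative differences. Neutrophil sums were 9.53, 234 and 6.33 TPM in SW033291 replicates 1, 4 and 6, and 780, 7.81 and 22.4 TPM in vehicle replicates 2, 3 and 8. A single library in each group thus weighs heavily on the neutrophil signs. The part of all these cells in these values was not tested.

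The direction of small differences in this comparison depended on the scale. The median of all genes was -0.13 on the deposited TPM scale and -0.01 after median-of-ratios scaling. Of the 37 genes, 18 had positive differences on the deposited scale, 32 after median-of-ratios scaling, 25 after quantile normalization and 27 after rescaling without the 20 most abundant genes. Under these scalings 32, 32, 26 and 32 of the 37 lay above the median of all genes, and the members' median was 0.13 above it on the deposited scale. With age the corresponding numbers below the median were 30, 30, 28 and 30 of 37, and 27, 30, 28 and 30 had negative differences.

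The comparison of aged vehicle muscle of batch 2 with batch 1 holds age and treatment fixed, and shows how far the 2 batches differ for these genes. Hk2 and Phka1, the regulatory alpha subunit of phosphorylase kinase in muscle, were higher in batch 2, and they were the 2 genes of the 37 that passed (limma with Benjamini-Hochberg adjustment), 5.41%, where 2.25% of all genes tested did. Hk2 stood at 184, 183 and 127 TPM in batch 2 replicates 2, 3 and 8, against 89.8, 106 and 65.6 TPM in batch 1 replicates 2, 3 and 4. The log2 difference was 0.92 (SE 0.18, limma adjusted p = 0.025). Phka1 stood at 417, 474 and 371 TPM in batch 2, against 253, 191 and 303 TPM in batch 1, a difference of 0.77 (SE 0.16, limma adjusted p = 0.025). Neither gene's batches overlapped.

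Both calls ended in fits that left out single libraries. The limma adjusted p of Hk2 was 0.099 without batch 1 replicate 2, 0.11 without batch 2 replicate 2 and 0.13 without batch 2 replicate 3. That of Phka1 was 0.10, 0.093 and 0.13 in those fits and 0.055 without batch 1 replicate 3.

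At an unadjusted p under 0.05, 10 of the 37 genes (27.0%) differed between batches, against 18.1% of all genes tested. Batches did not overlap for 5 genes that were higher in batch 2 (Hk2, Pgk1, Phka1, Phkg1 and Slc37a4), 13.5% against 11.9% of all genes tested, and for 2 that were lower (Slc2a1 and Tpi1), 5.41% against 4.64%, shares close to the background. Tpi1 stood at 2651, 2538 and 2858 TPM in batch 2, against 3611, 3724 and 3561 TPM in batch 1 (-0.44, SE 0.11, limma adjusted p = 0.054). Ppp1r3c stood at 1331, 1097 and 367 TPM in batch 2, against 588, 419 and 315 TPM in batch 1. Batch 2 replicate 8 was near batch 1 and the other 2 libraries far above it, and the difference of 0.93 (SE 0.36, limma adjusted p = 0.19) passed without replicate 8 (1.501, limma adjusted p = 0.0046) and was 0.57 without replicate 2 of batch 2. SW033291 muscle, also of batch 2, had 889, 1156 and 1154 TPM of Ppp1r3c. The median difference of the 37 genes between batches was 0.03, against 0.11 over all genes tested.

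**Figure D5:**
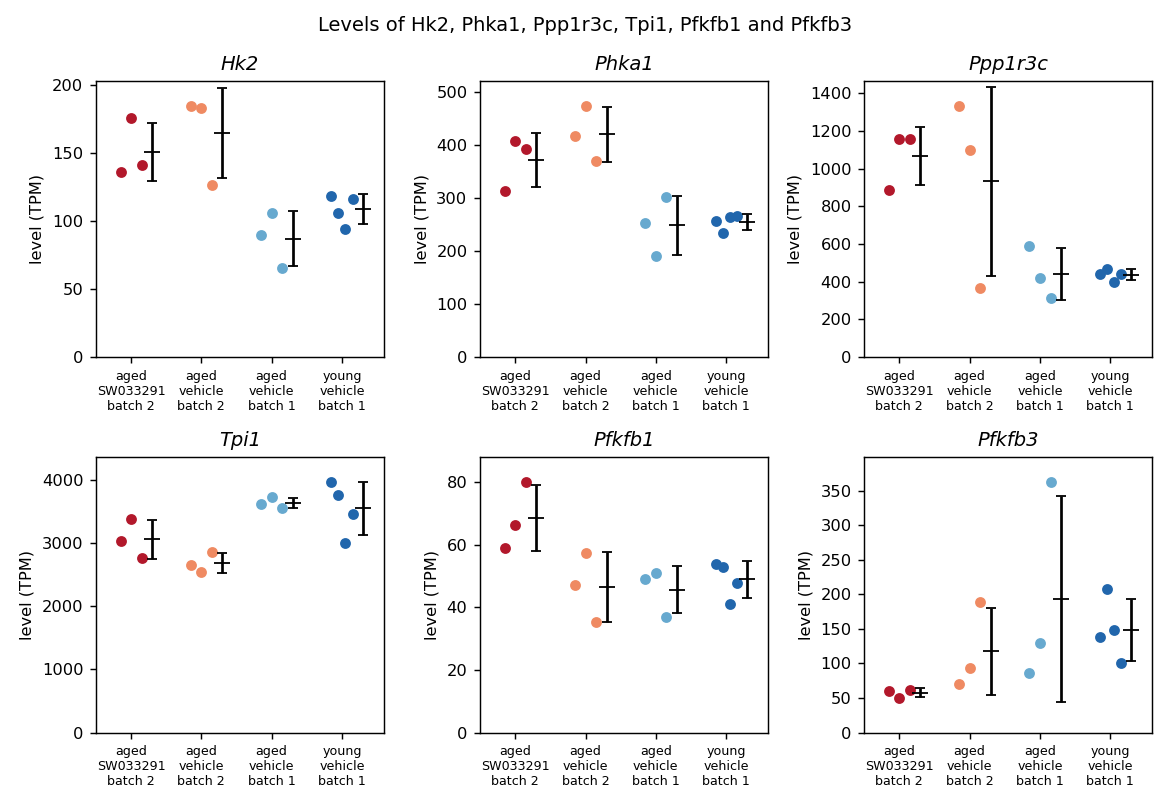
Level in TPM (vertical axes, from 0) of 6 genes in each library, by group, with the mean ± SD of each group as black marks (n = 3, 3, 3 and 4). Hk2 and Phka1 are higher in aged vehicle muscle of batch 2 than of batch 1, and Ppp1r3c is split within batch 2, with replicate 8 at 367 TPM.

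Other genes of the same pathways were tested for age and SW033291 as well. Of 96 such genes listed, 93 were in the file and 70 were tested. With age 0 passed, and with SW033291 0 passed, where an unadjusted p under 0.05 was reached by 8 with age (11.4%, against 9.92% of all genes tested) and by 5 with SW033291 (7.14%, against 10.3%), shares near the background. Their median differences were 0.03 with age, against 0.06 over all genes, and -0.08 with SW033291, against -0.13 over all genes. Among the lowest p with age were those of Gpd2, the mitochondrial partner of Gpd1 (64.1 TPM in aged and 83.8 TPM in young muscle, -0.38, limma adjusted p = 0.20), and Bsg, a chaperone of the lactate carriers (719 TPM in aged and 887 TPM in young muscle, -0.30, limma adjusted p = 0.27). The lowest p with SW033291 belonged to Gys2, the liver glycogen synthase (0.76 to 1.51 TPM with SW033291 and at most 0.46 TPM with vehicle, 0.76), Gpd1l, a relative of Gpd1 (15.5 TPM with SW033291 and 20.05 TPM with vehicle, -0.35), and Pck1, an enzyme of glyceroneogenesis in fat (23.3 TPM with SW033291 and 1.37 TPM with vehicle, 2.33), with limma adjusted p of 0.42, 0.42 and 0.46. Pck1 stood at 61.0 TPM in SW033291 replicate 1, the library with the highest adipocyte markers, and at 2.87 and 5.89 TPM in replicates 4 and 6. What fat cells contributed to Pck1 was not tested.

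The authors' deposited table for age, for which no source used here names the libraries, listed 10 of the 37 genes and held 813 genes in all, each with an unadjusted p of 0.00585 or less, so it was already selected and its counts describe only listed genes. All 10 had the direction of the TPM values. In the authors' deposited table Amy1 had a log2 change of 1.53 (adjusted p 1.257e-25) and Slc37a4 one of -0.56 (adjusted p 6.8e-04). It also gave Gpd1 at -0.57, Ldha at -0.43, Pgam2 at -0.58, Pgk1 at -0.37, Eno3 at -0.35 and Gbe1 at 0.49, with 8 of the 10 at an adjusted p under 0.05 in the authors' deposited table, where 63.2% of all its genes were. Slc16a3 and Pygb were the other 2 in the authors' deposited table. In the authors' deposited table for SW033291, 31 of the 36 genes with a log2 change were positive (86.1%) and 8 had an unadjusted p under 0.05 (22.2%). Of all 16675 genes with a log2 change in the authors' deposited table, 49.9% were positive and 2.73% had such a p. Of the 6371 at a mean level of 50 or more, a cut not applied to the members, 47.8% were positive and 5.79% had such a p. There Pfkfb1 had the lowest p, 8.3e-04, at a log2 change of 0.67, while Eno1 was listed at a mean level of 0, so its value rests on TPM alone. The log2 changes of the members in the authors' deposited table for SW033291 lay a median of 0.14 above the TPM differences, and 22 of 36 had the same sign.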

How the data were processed

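RNA-seq of whole quadriceps lysates gave 13 libraries, grouped as labelled. STAR, RSEM, DESeq2, DESeq and mm9 are named in the submitters' processing notes; their versions and order: not given in the sources used here. TPM values of 24015 genes were deposited by the authors in a single table. The authors' deposited tables for age and SW033291 hold, per the file headers, a log2 fold change, a p-value, a test score and a mean level, which is a signal averaged over libraries.

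In the TPM table the names did not stand on their own rows. After 27 spreadsheet dates were undone, the names were sorted in byte order and assigned to the rows. The Spearman correlation of mean levels with the authors' deposited table for SW033291 was then 0.960, against -0.017 as deposited, and 0.51 with the names moved by 1 row.

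The log2(TPM + 1) values were fitted with limma 3.58.1 (R 4.3.3). Genes had to reach 1 TPM in at least 3 libraries, which left 11876. The fold change of low genes is understated on this scale. The linear model had a term for each group, used all 13 libraries and let the variance follow the level. Benjamini-Hochberg adjustment covered all 11876 genes, with 0.05 as threshold. The fit was tested on simulated data. TPM are not counts, so no count test was run. Library values are given for genes that passed in any comparison, for those without overlap in the age or SW033291 comparison at an unadjusted p under 0.05, and for the most abundant genes of each role. Some results of other pathway genes are not reported here. Other values in the text were chosen after they were seen. The members and lists were chosen with earlier results of these data known. Promoter sequences are from RefSeq (GRCm38.p6). Alternatives covered the pseudocount, the filter, 3 scalings, the variance model, single libraries left out, the replicate block and the choice of aged batch.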

Additional observations from a re-analysis of the deposited data

Results flagged for a closer look

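In the 4 young libraries, each of the 37 genes was checked for a library far from the other 3, by the gap to the nearest value as a share of the whole range. Pgam2 in young replicate 5 stood at 4972 TPM, with the nearest of the others at 4563 TPM, a gap of 0.909 of the range. Eno3 in young replicate 4 stood at 7695 TPM, with the nearest at 8405 TPM, a gap of 0.916. Both gaps exceed Dixon's critical value for 4 samples, and among 37 genes chance flags about 1 in 20. Both libraries still lie above all 3 aged vehicle libraries of batch 1 for the gene concerned.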

How the results depend on the processing

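Amy1, Slc37a4, Hk2 and Phka1 kept their direction in every alternative, Slc37a4 losing its call in 11 of 18 and Hk2 and Phka1 in 8 of 14 each. Genes called with age, 54 in the fit reported, numbered 27 without the filter, 24 with only the 2 groups, 31 without the trend, 19 to 94 with 1 library left out, 1679 with aged batch 2 in place of batch 1, 297 with both pooled, and 8 without young replicates 1 and 3, an alternative chosen after seeing the data. Of the 37 members 2 were called, and 1 with only the 2 groups, without the trend or without young replicates 1 and 3, 1 to 2 with 1 library left out, 10 with aged batch 2 and 4 pooled. The members' median with age minus that of all genes, -0.21, ranged from -0.35 to -0.15 with 1 library left out.

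With SW033291, 0 genes were called (1221 at an unadjusted p under 0.05), 4 with a pseudocount of 0.1, 1 without the trend and 0 to 1 with 1 library left out. The members' median minus that of all genes, 0.13, was 0.15 with a pseudocount of 0.1, 0.065 without the filter, 0.072 under quantile normalization and 0.091 to 0.176 with 1 library left out. Between batches 267 genes were called, 164 under median-of-ratios scaling, 98 under quantile normalization, 1 with only the 2 groups, 112 without the trend and 18 to 1647 with 1 library left out, the highest without batch 1 replicate 4. Of the members 2 were called, 1 under median-of-ratios scaling (Tpi1, lower, in place of Hk2 and Phka1), 0 with only the 2 groups or without the trend and 0 to 7 with 1 library left out, and their median minus that of all genes, -0.081, ranged from -0.16 to 0.027. The causes were not tested.

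Samples with the same replicate number correlated in their deviations at 0.17 and 0.04 (age) and -0.15 and -0.06 (batch), so the numbers were not taken as pairs. With the replicate block, 34 genes and 1 member were called with age, and 1 gene and 0 members between batches. SW033291 and vehicle share no number. Depth is unknown, which limits low genes such as Pfkp, Hk1, Pygb and Slc2a1.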
